A study of Homo sapiens with 36 samples.

Results

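The mRNA levels of 50 genes of mitosis and the G2/M transition were followed in FLO1 and OE33, established cell lines from human adenocarcinoma of the esophagus. The genes were a list given by name: cyclins, CDK1 and its phosphatases (7 genes), mitotic kinases with their activators (6), spindle checkpoint and anaphase regulators (9), kinetochore and chromosomal passenger genes (8), kinesins (8), other spindle, midzone and cytokinesis genes (8), and transcription factors with chromosome proteins (4). All 50 were found among the 57500 Ensembl gene IDs of the count table, and all 50 passed the filter on low counts in each line. PolyA RNA was sequenced from stably transduced cells with shControl, a control hairpin, or with shAPE1#1 or shAPE1#3, hairpins directed at the mRNA of APE1. APE1 (gene APEX1) cuts DNA at abasic sites during base excision repair and has a redox activity on transcription factors. Cells were either left unexposed or given acidic bile salts (ABS), a model of reflux: 200 µM at pH 4.0 for 20 min, then 6 h of recovery. The media were DMEM for FLO1 and RPMI1640 for OE33, each with 10% serum, so line and medium cannot be told apart. Each of the 12 groups (FLO1 or OE33; shControl, shAPE1#1 or shAPE1#3; unexposed or ABS) had 3 libraries, 36 in all. The labels call them biological replicates that are independent and do not say whether replicates stem from separate transductions.

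Entry into mitosis is driven by CDK1 bound to cyclins A2 and B1, which CDC25 phosphatases switch on by removing inhibitory phosphates. Polo-like and Aurora kinases then mature the centrosomes and build the spindle, and the checkpoint proteins BUB1, BUB1B, BUB3, MAD2L1 and TTK hold anaphase back until every kinetochore is attached. CDC20 afterwards directs the anaphase-promoting complex to securin (PTTG1) and cyclin B, which frees separase (ESPL1) to open cohesin. Most of these genes are transcribed late in the cell cycle. The textbook elements of such promoters are CCAAT boxes, read by NF-Y, and the cell cycle genes homology region (CHR), read by the MuvB complex together with MYBL2 and FOXM1 in dividing cells or with repressive pocket proteins in resting cells. In a bulk culture, fewer cells in G2 or mitosis and less RNA of each gene per cell cannot be told apart.

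Promoters are shown because the 50 genes are usually described as one transcriptional group, and the sequences show what they share apart from their names. RefSeq entries (assembly GRCh38.p14) were found for 43 of the 50 genes, with 54 start sites. Each window ran from 250 bases before the start to 50 after it and was searched on both strands for the CCAAT box (CCAAT) and for the CHR (TTTGAA or TTCGAA); the 2 motifs can overlap by a few letters. A CCAAT box lay in 75.9% of member promoters (41 of 54) against 34.6% of all 35116 promoters in the table. A CHR lay in 64.8% (35 of 54) against 16.4%, and both lay in 55.6% (30 of 54) against 6.38%. A match describes these letters and not a bound site. The 250 bases before the first start are given below for 6 genes that recur in the results, in the direction of transcription, with CCAAT and CHR matches of either strand in capitals. They are the cyclin CCNB1 (chr5:69166900-69167149, plus strand), its kinase CDK1 (chr10:60778081-60778330, plus strand), the anaphase activator CDC20 (chr1:43358731-43358980, plus strand), the kinase PLK1 (chr16:23678639-23678888, plus strand), the topoisomerase TOP2A (chr17:40417897-40418146, minus strand) and the proliferation marker MKI67 (chr10:128126424-128126673, minus strand).
CCNB1: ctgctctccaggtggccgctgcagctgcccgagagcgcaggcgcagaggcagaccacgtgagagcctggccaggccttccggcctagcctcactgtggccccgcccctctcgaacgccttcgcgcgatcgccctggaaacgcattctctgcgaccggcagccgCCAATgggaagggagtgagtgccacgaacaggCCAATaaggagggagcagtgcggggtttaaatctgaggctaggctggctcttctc
CDK1: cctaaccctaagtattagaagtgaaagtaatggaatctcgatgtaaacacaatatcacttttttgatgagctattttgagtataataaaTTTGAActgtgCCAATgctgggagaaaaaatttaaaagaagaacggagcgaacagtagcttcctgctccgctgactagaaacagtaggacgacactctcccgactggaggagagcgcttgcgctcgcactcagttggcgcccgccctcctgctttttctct
CDC20: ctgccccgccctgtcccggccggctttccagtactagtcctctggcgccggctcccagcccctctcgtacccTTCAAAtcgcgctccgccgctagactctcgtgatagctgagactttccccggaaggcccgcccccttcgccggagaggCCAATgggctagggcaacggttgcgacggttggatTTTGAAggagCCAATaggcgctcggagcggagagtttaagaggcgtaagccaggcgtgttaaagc
PLK1: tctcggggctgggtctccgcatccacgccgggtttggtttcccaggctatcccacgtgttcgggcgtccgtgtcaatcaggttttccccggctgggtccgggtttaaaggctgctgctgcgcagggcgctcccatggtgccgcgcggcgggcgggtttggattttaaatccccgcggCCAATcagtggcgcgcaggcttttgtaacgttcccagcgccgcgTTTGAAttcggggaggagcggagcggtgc
TOP2A: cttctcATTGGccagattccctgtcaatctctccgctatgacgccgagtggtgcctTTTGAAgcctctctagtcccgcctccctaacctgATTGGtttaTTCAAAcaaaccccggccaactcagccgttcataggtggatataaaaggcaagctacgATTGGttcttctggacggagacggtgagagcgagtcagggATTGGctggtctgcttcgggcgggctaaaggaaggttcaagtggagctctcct
MKI67: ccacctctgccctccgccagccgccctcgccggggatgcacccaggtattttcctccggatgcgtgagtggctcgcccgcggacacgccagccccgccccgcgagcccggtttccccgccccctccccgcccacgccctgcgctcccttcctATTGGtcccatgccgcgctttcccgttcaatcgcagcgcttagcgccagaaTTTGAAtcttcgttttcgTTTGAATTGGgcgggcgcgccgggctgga

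These 6 promoters differed in layout. The CCNB1 window held 2 CCAAT boxes, beginning 87 and 55 bases before the start, and no CHR of the searched form. CDC20 held CCAAT boxes at -100 and -55 with CHR matches at -178 and -65, and PLK1 held 1 of each, at -73 and -29. TOP2A had 4 CCAAT boxes (at -244, -160, -93 and -53) and 2 CHR matches (-194 and -151). In MKI67 the CHR at -29 ran into a CCAAT box at -24, which reads as ATTGG on the printed strand. CDK1 had a CCAAT box at -150 and a CHR at -161 before the start shown here. Its other listed start, not printed, had CCAAT boxes at -78 and -46 and CHR matches at -69, -13 and, after the start, 10.

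Libraries held 20.7 to 40.7 M counts (M, 1e6 counts) each. APEX1 fell in each shAPE1 group: in unexposed FLO1 cells it was at 195 to 198 CPM (counts per 1e6 counts) with shControl, 24.9 to 25.3 with shAPE1#1 and 36.1 to 38.2 with shAPE1#3, and in OE33 at 192 to 198, 22.8 to 25.9 and 21.2 to 22.2 CPM. KRT8 and KRT18 were high in both lines, but EPCAM was at 0.347 to 1.70 CPM in FLO1 against 462 to 650 CPM in OE33, and CLDN7 (0.190 to 0.958 CPM) and ESRP1 (0 to 0.700 CPM) were close to 0 in FLO1 as well. Of 8 markers each, immune markers summed to at most 9.14 CPM in any library, endothelial markers to at most 23.0 (FLO1) and fibroblast markers to at most 37.2 (FLO1); most of the FLO1 sums were ROBO4 and COL1A1. PTPRC stayed at or below 0.0484 CPM and MS4A1 was at 0 in all 36 libraries. FLO1 shControl ABS replicate 2 stood apart, with a mean GC content of 52.7% over its counts against 50.6 to 51.8% in the other FLO1 libraries; its 50 mitotic genes took 0.738% of the counts. OE33 shAPE1#1 replicate 2 (51.4%) and OE33 shAPE1#1 ABS replicate 3 (51.7%) lay above the 50.5 to 51.2% of the other OE33 libraries.

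The 50 genes took 0.930% ± 0.0475 of all counts in unexposed FLO1 shControl cells and 0.602% ± 0.0297 in OE33 shControl cells (mean ± SD, n = 3 libraries each). Per kb of exons, the scale on which different genes can be compared, the highest in FLO1 were the ubiquitin-conjugating enzyme UBE2C (263 CPM per kb), CDC20 (216), the transcription factor MYBL2 (185), CCNB1 (174) and the Aurora A activator TPX2 (160). UBE2C (166), MYBL2 (104), CCNB1 (97.2), TPX2 (86.8) and CDC20 (81.6 CPM per kb) also led in OE33. The lowest in both was SGO1, which guards centromeric cohesin, at 2.64 CPM per kb in FLO1 and 2.71 in OE33. The same 5 genes thus led in both lines, with CDC20 ahead of MYBL2 in FLO1 and behind TPX2 in OE33.

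Unexposed shControl cells of the lines differed in 41 of the 50 genes (Benjamini-Hochberg adjusted p under 0.05 in edgeR's quasi-likelihood test over all 36 libraries, as in all comparisons of the lines here). In OE33 31 were lower and 10 higher, where 39.9% of the 18199 genes tested were lower and 37.6% higher. The median log2 difference was -0.58, against -0.06 over all genes. CDC25C, a phosphatase that activates CDK1, differed most, with 59.4, 60.4 and 53.1 CPM in the 3 FLO1 libraries and 11.1, 12.9 and 13.4 in OE33 (log2 -2.08 ± 0.10, 4.23-fold lower; changes are given as log2 ± SE from here on). The mitotic kinesin KIF20A was 3.26-fold lower (log2 -1.70 ± 0.07), and the passenger kinase AURKB 3.19-fold (log2 -1.67 ± 0.11). Other members lower in OE33 were the passenger subunit CDCA8 (log2 -1.55), separase ESPL1 (-1.44) and the chromokinesin KIF4A (-1.29). By contrast CDK1 was 2.41-fold higher in OE33: its libraries held 148, 166 and 171 CPM against 70.7, 87.2 and 62.1 in FLO1 (log2 1.27 ± 0.15), with no overlap.

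The other members that were higher in OE33 included the hyaluronan receptor and spindle protein HMMR (log2 0.88), MAD2L1 (0.72), the kinesins KIF20B (0.70) and CENPE (0.70), CDC25A (0.62) and CCNA2 (0.53). So CDK1 and cyclin A2 were higher in OE33 while the B cyclins were lower: CCNB1 was at -0.71 ± 0.07 and CCNB2 at -0.75 ± 0.07 on the log2 scale. Of the kinetochore and passenger genes 7 of 8 were lower and CENPE higher, with overlapping libraries. Among the further followed genes CDC20 (-1.27), FOXM1 (-0.96) and TOP2A (-0.50) were lower and AURKA, the centrosomal Aurora kinase, was higher (0.26), whereas MKI67 (-0.30 ± 0.15, adjusted p = 0.0691) and PLK1 (-0.05 ± 0.09, adjusted p = 0.626) were not called. Scaling by the RLE method in place of TMM moved the median of all genes from -0.06 to -0.10.

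The members are poor in G and C. Their longest transcripts had a median GC content of 42.9% (34.2% in KIF20B to 60.5% in MYBL2), against 50% over the 16794 genes of the FLO1 test that had a transcript in the annotation, and 37 of 50 lay below that median. In OE33 the median of all genes was 49.1% and 36 lay below. Libraries also differed in how counts depended on GC content, so every comparison was fitted again after a correction. It was a smooth curve over GC content for each library, fitted without regard to group. A difference between lines, hairpins or exposures that followed GC content would be taken out as well. With the correction, the median SD of a member between libraries of a group fell from 0.153 to 0.0886 (log2) in FLO1 and from 0.0996 to 0.0753 in OE33. The share of all genes called rose with it too, as the percentages beside each count show. Between the lines the correction changed 8 signs. The difference of CDC25B went from -0.30 to 0.01, no longer called, and that of PLK1 from -0.05 to 0.25 (adjusted p = 1.77e-05). The kinesins KIF11 (0.22, then -0.19) and KIF18A (0.24, then -0.21) and the cytokinesis regulator ECT2 (0.17, then -0.25) were called lower only with the correction, while TTK (0.17, then -0.15), SGO1 (0.17, then -0.12) and ANLN (0.25, then -0.11) were called neither time. The values of most members higher in OE33 shrank: CDK1 to 0.83, HMMR to 0.44, MAD2L1 to 0.34, CCNA2 to 0.26 and KIF20B to 0.22. CENPE (0.23, adjusted p = 0.161), KIF14 (0.06) and ASPM (0.01), whose libraries overlapped between the lines, were no longer called, whereas CDC25A went to 0.76. With the correction 34 members were lower and 8 higher (41.8% and 37.8% of all genes).

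Across libraries of a line, the median deviation of the 50 genes from their mean over that line's libraries gave a first view of the exposure. In FLO1 it was 0.18 (0.11 to 0.29, log2) in shControl, 0.06 in shAPE1#1 and 0.10 in shAPE1#3 cells, and after ABS -0.11, -0.09 and -0.10. The shControl ABS libraries ranged from -0.36 to 0.04, and the lowest was replicate 2, which stood apart in GC content. After the GC correction the same 3 libraries lay between -0.12 and -0.03, below all 3 unexposed ones (0.14 to 0.19). In OE33 all group means lay between -0.07 and 0.09 before and -0.04 and 0.07 after correction.

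**Figure D1:**
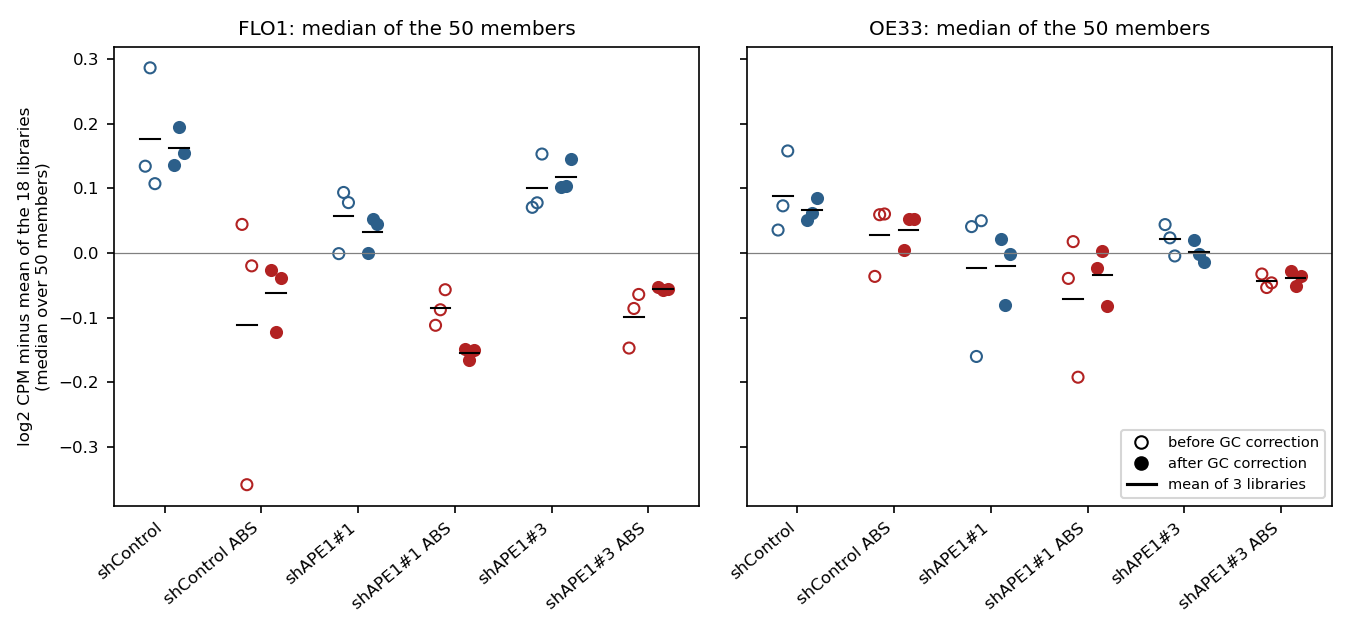
Median deviation of the 50 genes from their mean over the libraries of a line (y axis, log2), by group (x axis), for FLO1 and OE33; each point is 1 library, open before and filled after GC correction, and lines are means of 3 libraries. In FLO1 the corrected ABS libraries of shControl cells lie between -0.12 and -0.03, below the unexposed ones at 0.14 to 0.19.

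All 3 cyclins of the list, survivin and 3 kinase, spindle or kinesin genes fell after ABS in FLO1 shControl cells, and no member rose. At an adjusted p under 0.05 (edgeR's quasi-likelihood fit of all 18 FLO1 libraries, Benjamini-Hochberg, used for every FLO1 comparison here) 7 of 50 members fell and 0 rose (0.516% of 16868 genes fell and 2.48% rose). The median change over the 50 was -0.26 against -0.01 over all genes, and 48 were below 0. Fitting only the 6 libraries compared called 0 of 50, with 11 at an unadjusted p under 0.05 and a median of -0.25, and DESeq2 on the 18 libraries called 12. In that smaller fit CCNB1 was at -0.45 ± 0.12 (adjusted p = 0.249). Here and below, member counts from fits other than the main and GC-corrected ones stand without the share of all genes called. They were not set against it. Of the cyclin and phosphatase genes 3 of 7 fell, of the kinases 2 of 6, of the kinetochore and passenger genes 1 of 8 and of the kinesins 1 of 8. No gene grouped under spindle checkpoint and anaphase, other spindle, or transcription factors passed the test. BUB1 and TPX2, which did pass, were grouped with the kinases.

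CCNB1, the B cyclin that activates CDK1 (chr5:69167010-69178245, GRCh38), was at 459, 466 and 410.3 CPM in the unexposed libraries and at 367, 281 and 358 CPM after ABS. All 3 ABS libraries lay below all unexposed ones, and replicate 2 was lowest. The change was -0.46 ± 0.09 (adjusted p = 0.00299) on the log2 scale, a fall of 27.5%. CCNA2, the S and G2 phase cyclin, went from 88.6, 100.5 and 90.8 to 82.9, 60.6 and 72.9 CPM (-0.42 ± 0.09, adjusted p = 0.00594). CCNB2, the other B cyclin, changed by -0.35 ± 0.08 (adjusted p = 0.0221). So all 3 cyclins of the list fell, each without overlap between groups. Here and elsewhere, how many of all genes lay without overlap was not counted, so such statements describe the libraries only.

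Survivin (BIRC5), a passenger subunit that also inhibits caspases, went from 203, 226 and 216 to 173, 148 and 188 CPM (-0.39 ± 0.08, adjusted p = 0.00694). The chromokinesin KIF4A, which acts on chromosome arms and the midzone, went from 149.6, 154 and 148 to 128, 107 and 128 CPM (-0.37 ± 0.08, adjusted p = 0.00669). Both were lower in every ABS library than in any unexposed one. The checkpoint kinase BUB1 changed by -0.36 ± 0.09 (adjusted p = 0.0423) and TPX2 by -0.30 ± 0.08 (adjusted p = 0.0338). CCNB1, CCNA2, BIRC5 and KIF4A kept their call when each of the 18 libraries was left out in turn, CCNB2 lost its call without shControl replicate 1 or 2, TPX2 without 9 of the libraries and BUB1 without 16. Without the ABS library that stood apart, 11 members fell and 0 rose. CCNB1 was then at -0.37 (adjusted p = 0.00248) and BIRC5 at -0.33 (0.00732), and the kinase PLK1 (-0.38, adjusted p = 0.00344), CDC20 (-0.32, 0.0105) and the transcription factor FOXM1 (-0.32, 0.0316) were called, whereas BUB1 (0.0688) and TPX2 (0.0532) were not.

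**Figure D2:**
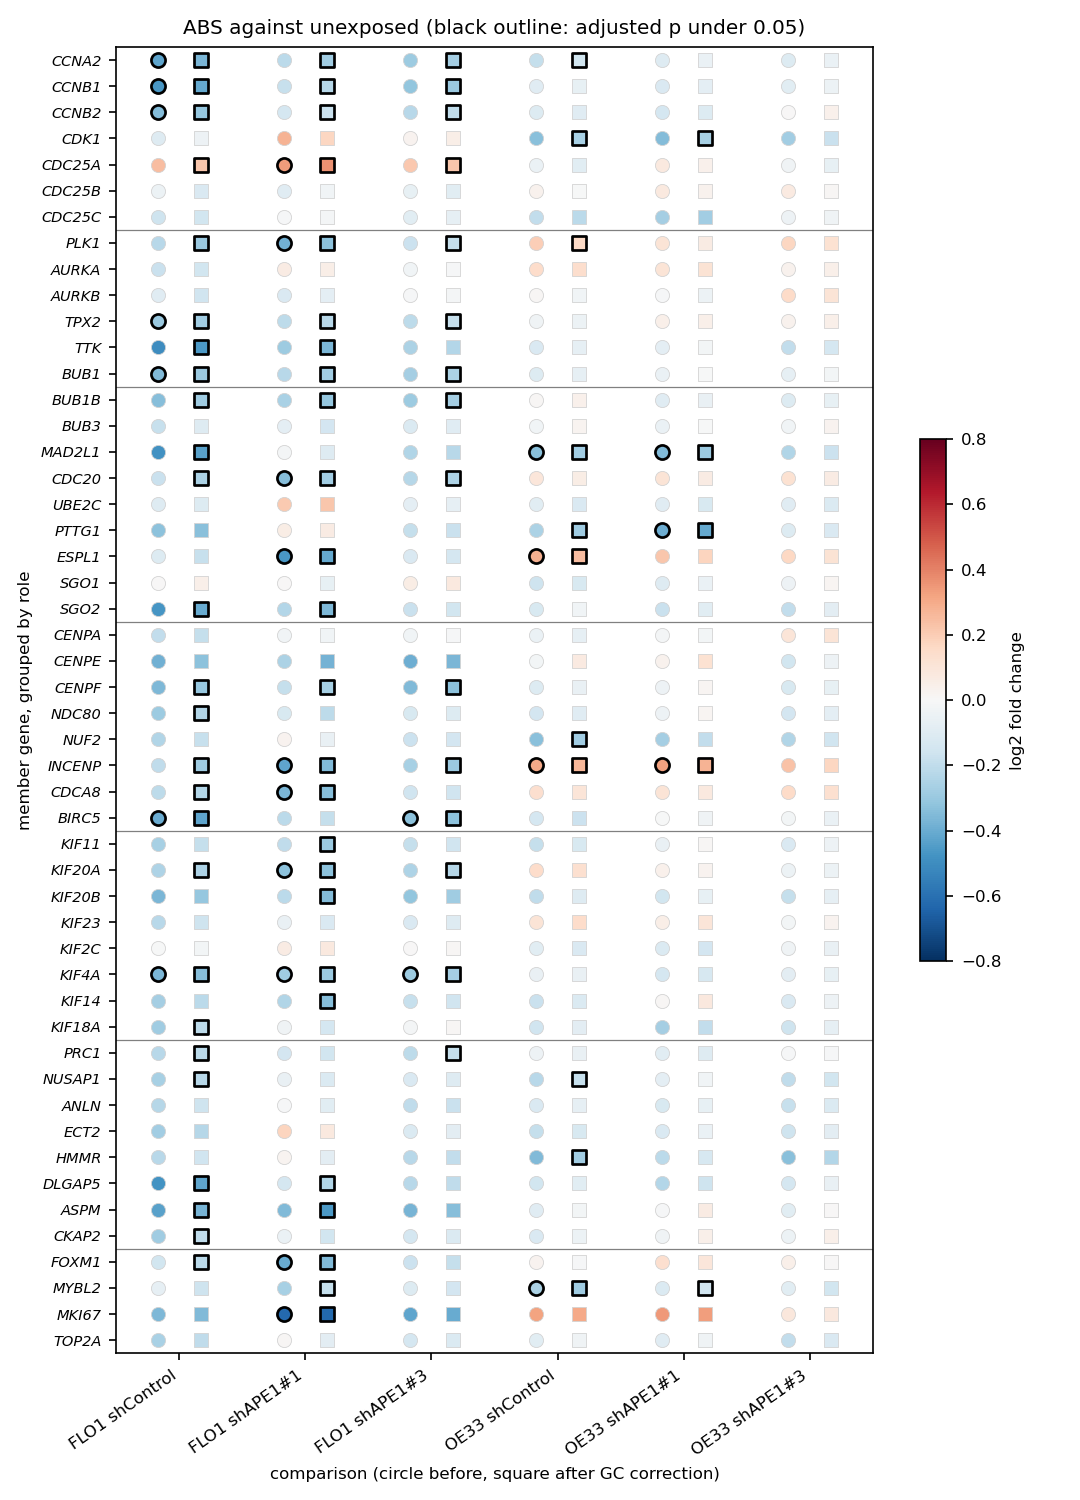
Change after ABS of each of the 50 genes (rows, by role) in the 3 shRNA groups of FLO1 and OE33 (columns), as log2 in colour from -0.8 (blue) to 0.8 (red); circles are before and squares after GC correction, and a black outline marks an adjusted p under 0.05. FLO1 columns hold most of the blue outlined squares, 25, 24 and 14 by group, against 8, 4 and 0 in OE33.

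After the GC correction 25 members fell in FLO1 shControl cells and 1 rose, where 4.16% of all genes fell and 5.10% rose; the median was -0.22, close to the uncorrected one. The mitotic kinases TTK (-0.50 before, -0.46 ± 0.11, adjusted p = 0.0116 after) and PLK1 (-0.22, then -0.29 ± 0.05, adjusted p = 0.000292) passed, as did CDC20 (-0.18, then -0.25 ± 0.05, adjusted p = 0.000856), the checkpoint protein MAD2L1 (-0.49, then -0.43 ± 0.09, adjusted p = 0.00197) and FOXM1 (-0.15, then -0.22 ± 0.07, adjusted p = 0.0492). Calls then came from every role: 3 of 7 cyclin and phosphatase genes, 4 of 6 kinases, 4 of 9 checkpoint, 5 of 8 kinetochore, 3 of 8 kinesin, 5 of 8 other spindle and 1 of 4 transcription factor or chromosome genes fell. CDC25A, the phosphatase that acts at the G1/S border as well as in G2, was the gene above 0 that passed: it was at 32.1, 35.4 and 33.9 CPM in unexposed and 43.2, 39.6 and 41.9 in exposed libraries, without overlap (0.25 ± 0.08, adjusted p = 0.104, after correction 0.22 ± 0.07, adjusted p = 0.0360). CDK1 (-0.04, adjusted p = 0.759), AURKA (-0.15, 0.0789), TOP2A (-0.20, 0.0894) and MKI67 (-0.35, 0.264) were not called with the correction, nor without it.

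**Figure D3:**
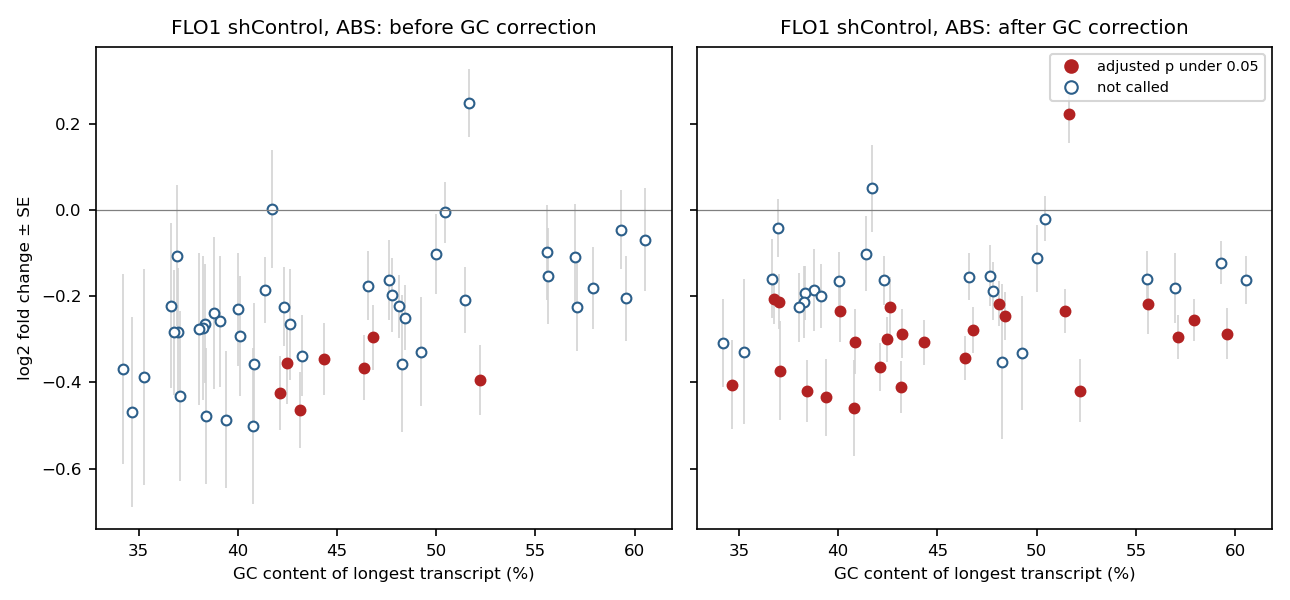
Change after ABS in FLO1 shControl cells (y axis, log2 ± SE) against GC content of the longest transcript (x axis, %) for the 50 genes, before and after GC correction; red points have an adjusted p under 0.05. Before correction Pearson's r over the genes is 0.51, after it 0.20, and the red points go from 7 to 26.

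Over the 50 genes, the correlation of change with GC content was 0.51 before and 0.20 after the correction in this comparison (Pearson's r, a description across genes, which share the libraries). In shAPE1#1 cells it was -0.28 before and 0.03 after, and in shAPE1#3 cells 0.20 and 0.07. So GC content ran with the uncorrected changes in opposite directions in shControl and shAPE1#1 cells. FLO1 shControl ABS replicate 2 enters the first of these.

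In FLO1 shAPE1#1 cells ABS lowered 9 members and raised 1 (2.07% of all genes fell and 2.94% rose), with a median of -0.15 and 39 of 50 below 0. KIF4A was the member called in shControl cells that was also among these 9. Ki-67 (MKI67), which coats mitotic chromosomes, was at 556, 618 and 562 CPM in unexposed and 245, 435 and 466 CPM in exposed libraries (-0.62 ± 0.16, adjusted p = 0.0247); the first ABS library was far below the others, and the change ran from -0.78 to -0.39 when single libraries were left out, losing its call without 5 of 18. The passenger subunit CDCA8 fell by 0.36 on the log2 scale (adjusted p = 0.00565) and kept its call without each library in turn. Separase ESPL1 (-0.46 ± 0.12, adjusted p = 0.0302), the passenger scaffold INCENP (-0.42 ± 0.10, adjusted p = 0.0136), FOXM1 (-0.40 ± 0.11, adjusted p = 0.0389) and PLK1 (-0.38 ± 0.10, adjusted p = 0.0317) lay further down, each losing its call without 4 to 11 of the libraries. CDC20 (-0.34), KIF20A (-0.33) and KIF4A (-0.28) completed the 9, and lost their call without 13, 4 and 6 of the libraries. CDC25A rose, from 25.8, 27.7 and 27.1 to 32.8, 34.5 and 36.3 CPM (0.34 ± 0.08, adjusted p = 0.0135), and lost its call without 3 libraries. Fitting only the 6 libraries compared called 15 lower and 2 higher here, and 15 lower in shAPE1#3 cells. In this smaller fit of shAPE1#1 cells MKI67 was not called (-0.61 ± 0.24, adjusted p = 0.162), and the other members named here were.

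With the GC correction 24 members fell and 1 rose in shAPE1#1 cells (7.18% and 6.35% of all genes). CCNB1 was then called (-0.18 before, -0.23 ± 0.06, adjusted p = 0.0102 after), while CDK1 (0.28, then 0.17), AURKA (0.06, then 0.05) and TOP2A (0.01, then -0.08) passed neither test. In shAPE1#3 cells 2 members fell and 0 rose (0.285% and 1.53% of all genes), with a median of -0.18 and 46 of 50 below 0. They were BIRC5, from 214, 219 and 225 to 172, 186 and 182 CPM (-0.33 ± 0.08, adjusted p = 0.0409), and KIF4A, from 137, 134 and 144 to 113, 114 and 122 CPM (-0.29 ± 0.08, adjusted p = 0.0471). Neither gene's libraries overlapped, but BIRC5 lost its call without 13 of 18 libraries and KIF4A without 15. After correction 14 fell and 1 rose (2.37% and 4.06%), CCNB1 among them (-0.30 ± 0.06, adjusted p = 0.00208). Without FLO1 shControl ABS replicate 2, which is in neither group but in the shared estimate of spread, 10 members fell in shAPE1#3 cells and 12 in shAPE1#1 cells, uncorrected.

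The 3 FLO1 exposures used separate libraries, so their values can be set side by side. KIF4A fell in all 3 without correction (-0.37 in shControl, -0.28 in shAPE1#1 and -0.29 in shAPE1#3 cells), and 39 of the 50 genes were below 0 in each. With correction 12 fell in all 3: the cyclins CCNA2, CCNB1 and CCNB2, the kinases and activators BUB1, PLK1 and TPX2, the checkpoint and anaphase genes BUB1B and CDC20, the kinetochore and passenger genes CENPF and INCENP, and the kinesins KIF20A and KIF4A. PLK1, for example, was at -0.29, -0.33 and -0.19, and CCNB1 at -0.41, -0.23 and -0.30. CDC25A rose in all 3 with the correction, by 0.22, 0.36 and 0.22. How many of all genes were called in all 3 exposures was not counted. Taken singly, in the same order, 4.16%, 7.18% and 2.37% of all genes fell and 5.10%, 6.35% and 4.06% rose with the correction. The difference between the mean response of the shAPE1 cells and that of shControl cells, tested as an interaction, was called for 0 of 50 members by edgeR with and without the correction, and by DESeq2. Without the correction 0 had an unadjusted p under 0.05 and the median was 0.11 with 10 genes below 0; with it 4 had, and the median was 0.06 with 16 below 0. Few or no genes of the table were called (0% without the correction, 0.0119% lower and 0.00593% higher with it). Over all genes 343 were higher and 392 lower at an unadjusted p under 0.05, and DESeq2 called 0 and 3. Over the members it ran against GC content with r = -0.69, and after correction -0.19.

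**Figure D4:**
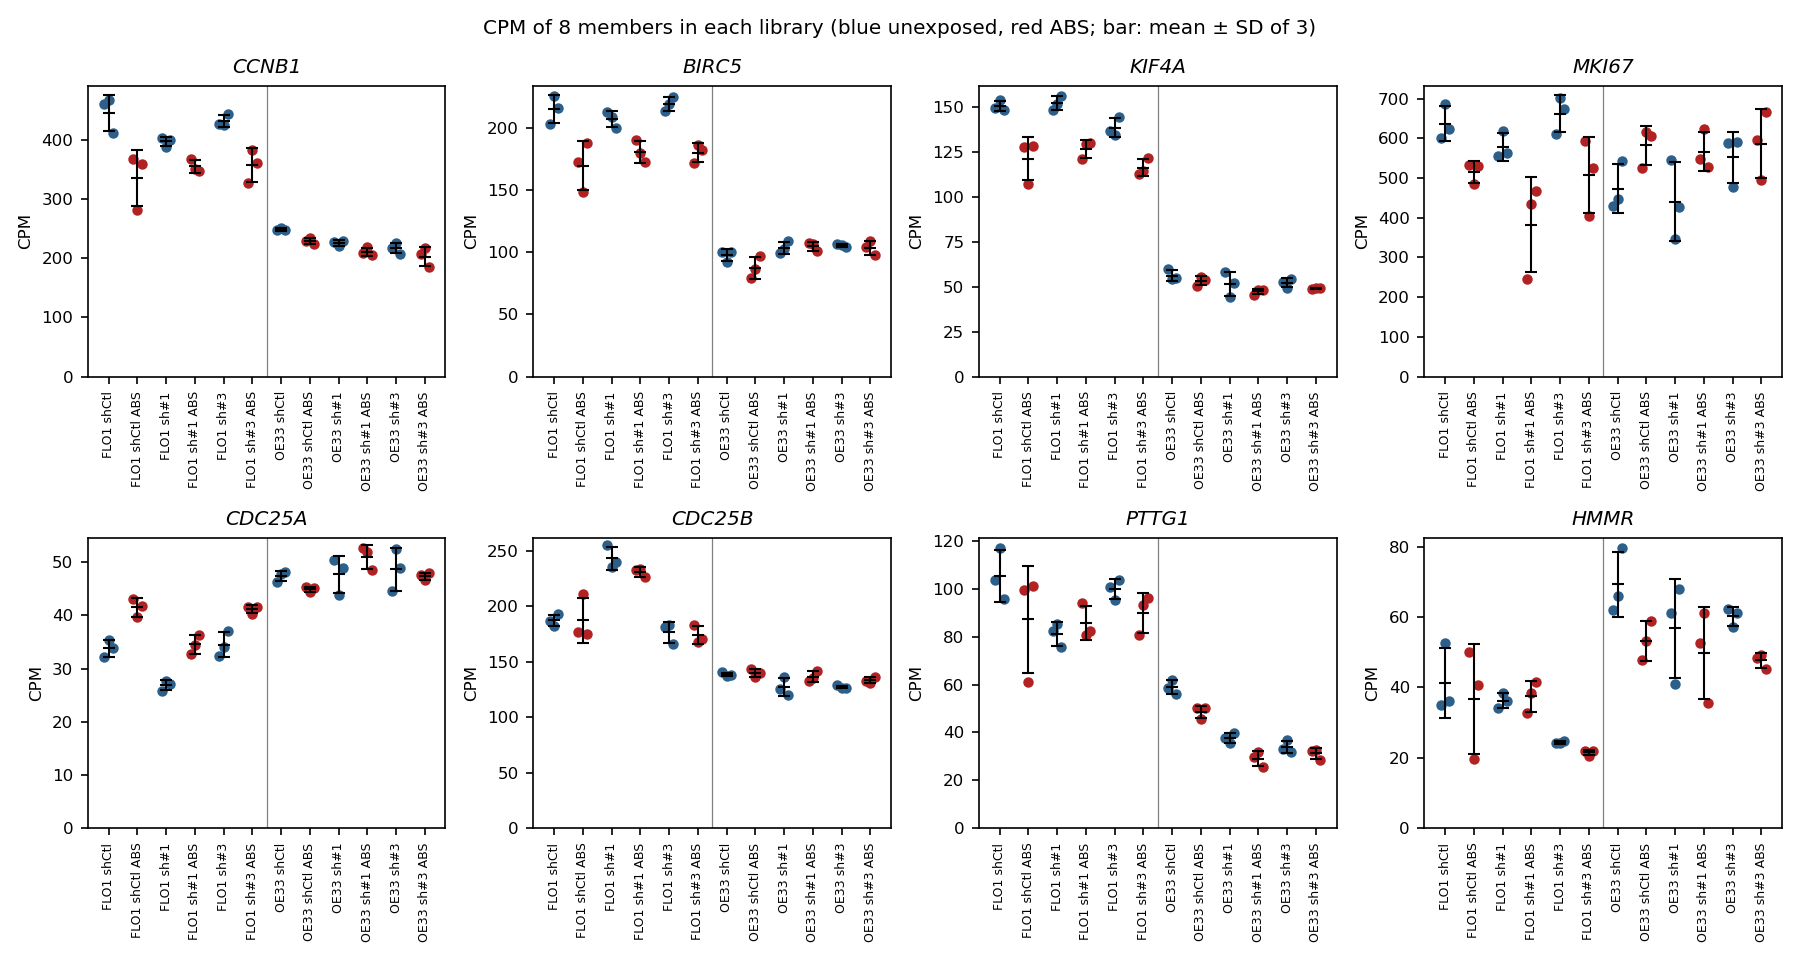
CPM (y axis) of 8 members in the 12 groups (x axis); each point is 1 library, blue unexposed and red after ABS, and bars give the mean ± SD of 3 libraries. CCNB1, BIRC5 and KIF4A are lower after ABS in FLO1 shControl cells without overlap, CDC25A is higher, and PTTG1 is lower in both shAPE1 groups of OE33.

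In OE33 shControl cells the genes that passed the test after ABS went both ways. At an adjusted p under 0.05 (edgeR's quasi-likelihood fit of 18 OE33 libraries, Benjamini-Hochberg) 2 of 50 rose and 2 fell, where 5.89% of 15540 genes rose and 2.51% fell. The median was -0.10, with 37 below 0. INCENP went from 103, 107 and 111 to 125, 133 and 131 CPM (0.30 ± 0.07, adjusted p = 0.00633), above all unexposed libraries, and it kept its call when any single library was left out. ESPL1 rose as well (0.29 ± 0.08, adjusted p = 0.0238) but lost its call without 6 of 18 libraries. MAD2L1, which carries the checkpoint signal from unattached kinetochores, went from 88.1, 96.9 and 95.7 to 72.4, 73.01 and 73.7 CPM (-0.34 ± 0.09, adjusted p = 0.0179) and MYBL2 fell by 0.25 (adjusted p = 0.0189). MAD2L1 and MYBL2 lost their call without 4 and 6 libraries. Fitting only the 6 libraries compared called 4 higher and 8 lower. CCNB1 (-0.10), CDC20 (0.10), PLK1 (0.20), AURKA (0.14), TOP2A (-0.09) and FOXM1 (0.03) were not called, nor were MKI67 (0.32 ± 0.13, adjusted p = 0.125) and CDK1 (-0.33 ± 0.11, adjusted p = 0.0638).

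With the GC correction 3 rose and 8 fell in OE33 shControl cells (8.84% and 6.02% of all genes): PLK1 joined those that rose (0.16 ± 0.05, adjusted p = 0.0288), and CDK1 (-0.26 ± 0.06, adjusted p = 0.00361), PTTG1, NUF2, HMMR, NUSAP1 and CCNA2 joined those that fell. In shAPE1#1 cells 1 rose and 2 fell (3.02% and 1.71% of all genes). INCENP changed by 0.33 ± 0.07 (adjusted p = 0.00709), PTTG1 by -0.39 ± 0.09 (adjusted p = 0.0103) and MAD2L1 by -0.35 ± 0.09 (adjusted p = 0.0239); without OE33 shAPE1#1 ABS replicate 3, which stood apart, INCENP alone was called, and without OE33 shAPE1#1 replicate 2 the counts were 1 and 4. Fitting only the 6 libraries compared called 0 of 50, with 7 at an unadjusted p under 0.05. In shAPE1#3 cells edgeR called 0 of 50 in either direction (1.76% of all genes rose and 0.502% fell); 8 had an unadjusted p under 0.05 and DESeq2 called 1. After correction 1 rose and 4 fell in shAPE1#1 cells (5.39% and 4.29%) and 0 changed in shAPE1#3 cells (3.27% and 1.56%). No member was called in all 3 OE33 exposures with the same sign, and INCENP was at 0.30, 0.33 and 0.24 in shControl, shAPE1#1 and shAPE1#3 cells. The number of all genes called in all 3 was not counted. Changes ran with GC content here too: r was 0.57, 0.53 and 0.78 before and 0.34, 0.26 and 0.50 after correction, over 50 genes. The interaction with the shRNAs called 0 of 50 members by edgeR and by DESeq2 (0% of all genes in each direction), with 0 at an unadjusted p under 0.05. Over all genes 255 were higher and 433 lower at an unadjusted p under 0.05, and DESeq2 called 7 and 17; with the correction it again called 0, with 1 member at an unadjusted p under 0.05, where 0.0386% of all genes were higher and 0.135% lower.

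The ABS response of shControl cells was then compared between the lines in the fit of all 36 libraries. The response of OE33 lay above that of FLO1 for 42 of the 50 genes (8 below 0), with a median difference of 0.17 on the log2 scale, and the difference was called for 2, both higher in OE33 (0.764% of all genes higher, 0.967% lower). INCENP was at 179, 178 and 187 CPM in unexposed and 148, 186 and 152 in exposed FLO1. In OE33 the values were 103, 107 and 111 unexposed and 125, 133 and 131 exposed, and the responses differed by 0.50 ± 0.12 (adjusted p = 0.0202). KIF20A, a kinesin of cytokinesis, was at 250.3, 245 and 233 CPM in unexposed and 212, 212 and 210.1 in exposed FLO1. In OE33 it was at 70.5, 65.7 and 67.9 unexposed and 75.6, 74.5 and 72.8 exposed, a difference in response of 0.39 ± 0.10 (adjusted p = 0.0277). In FLO1 all exposed KIF20A libraries were below the unexposed ones and in OE33 all were above. Neither KIF20A change was called within its line before the GC correction, and with it the fall in FLO1 alone was. The difference between the lines lost its call without 7 libraries for INCENP and without 6 for KIF20A, of 36. In edgeR's fit of only the groups compared neither was called (adjusted p = 0.258 for INCENP and 0.225 for KIF20A). Without FLO1 shControl ABS replicate 2 the difference was called for 7 members, all higher, and without FLO1 shControl replicate 1 for 0. With the GC correction 11 were higher and 1 lower (3.01% and 2.30% of all genes); PLK1 (0.45 ± 0.07, adjusted p = 3.74e-05), CCNB1 (0.34 ± 0.09, adjusted p = 0.0107), CDC20 (0.31 ± 0.07, adjusted p = 0.00617) and AURKA (0.29 ± 0.07, adjusted p = 0.0107) were among the higher, and CDC25A was the lower (-0.31 ± 0.09, adjusted p = 0.0352). CDK1 (-0.25), TOP2A (0.15), MKI67 (0.66) and FOXM1 (0.20) were not called.

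The next comparisons asked how the mitotic genes differed between cells with a hairpin against APE1 and shControl cells, unexposed and after ABS. Both shRNAs were set against the same shControl libraries, so their values are given side by side. In unexposed FLO1 cells shAPE1#1 raised 1 member and lowered 1 (4.52% and 2.22% of all genes), with a median of -0.14 and 45 of 50 below 0. CDC25B and CDC25A, 2 of the 3 phosphatases, moved in opposite directions. CDC25B, which starts CDK1 activation at centrosomes, was at 186, 182 and 193 CPM with shControl and 255, 235 and 239.6 with shAPE1#1 (0.37 ± 0.09, adjusted p = 0.0139), without overlap. CDC25A was at 32.1, 35.4 and 33.9 CPM with shControl and 25.8, 27.7 and 27.1 with shAPE1#1 (-0.34 ± 0.08, adjusted p = 0.0107). Without shAPE1#1 replicate 1 neither was called, and CDC25B also lost its call without shControl replicate 2; without FLO1 shControl ABS replicate 2 the counts were 1 higher and 7 lower.

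In shAPE1#3 cells edgeR called 0 of 50 (0.166% of all genes were higher and 0.622% lower), with 3 at an unadjusted p under 0.05 and 1 called by DESeq2; CDC25B was at -0.10 and CDC25A at 0.01. The lowest value was that of HMMR, which organises spindle poles, at 34.97, 52.6 and 36.01 CPM with shControl and 24.1, 24.2 and 24.7 with shAPE1#3 (-0.78 ± 0.19, adjusted p = 0.0633). After the GC correction HMMR was called (-0.70 ± 0.09, adjusted p = 2.21e-05), the single member in that comparison (0.943% of all genes higher, 2.16% lower), and it was also called after ABS (-0.73 ± 0.09, adjusted p = 1.66e-05, -0.77 uncorrected). With shAPE1#1 HMMR was at -0.19 (adjusted p = 0.644). The correction brought the shAPE1#1 counts to 1 higher and 14 lower (9.44% and 7.49% of all genes), among the lower BUB1B (-0.28), AURKB (-0.28), UBE2C (-0.27), CDC20 (-0.21), AURKA (-0.20) and CCNB1 (-0.18). CDK1, PLK1, TOP2A, MKI67 and FOXM1 were not called with either shRNA in unexposed FLO1, corrected or not.

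The hairpins could also be compared directly. In unexposed FLO1, shAPE1#3 cells had 3 members higher and 1 lower than shAPE1#1 cells (4.66% and 7.52% of all genes), and 12 and 2 after correction (10.2% and 12.3%). CDC20 (0.40 ± 0.09, adjusted p = 0.00714) and CDC25A (0.35 ± 0.08, adjusted p = 0.00541) were higher and CDC25B lower (-0.47 ± 0.09, adjusted p = 0.00115); these 3 kept their call when any single library was left out. The microtubule depolymerase KIF2C was higher as well (0.24 ± 0.07, adjusted p = 0.0265) and lost its call without 6 of 18. So the CDC25 changes seen with shAPE1#1 differed from those of shAPE1#3 by a test of their own.

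After ABS, FLO1 shAPE1#1 cells had 1 member higher and 7 lower than shControl cells (8.26% and 8.31% of all genes): CDC25B (0.32 ± 0.09, adjusted p = 0.0195), MYBL2 (-0.43 ± 0.12, adjusted p = 0.0168), ESPL1 (-0.43 ± 0.12, adjusted p = 0.0214), CDC20 (-0.37 ± 0.10, adjusted p = 0.0107), INCENP (-0.32 ± 0.10, adjusted p = 0.0298), PLK1 (-0.30), CDC25A (-0.24) and CDCA8 (-0.24). CDC20 kept its call when any single library was left out, CDC25B lost it without 2 libraries, MYBL2, ESPL1 and INCENP without 3 each, CDCA8 without 10, CDC25A without 11 and PLK1 without 16. The changes then ranged from -0.58 to -0.22 for MYBL2, from -0.41 to -0.17 for INCENP and from -0.41 to -0.14 for PLK1. Without shControl ABS replicate 2 the counts were 1 and 3. Fitting only the 6 libraries compared called 0 of 50, CDC20 included (-0.38 ± 0.14, adjusted p = 0.193), with 4 at an unadjusted p under 0.05. These uncorrected changes ran against GC content with r = -0.65 over the 50 genes, and after correction, with 1 higher and 12 lower (12.6% and 11.6%), r was -0.16. In shAPE1#3 cells edgeR called 0 after ABS (0.124% of all genes higher, 0.658% lower), with 2 at an unadjusted p under 0.05 and 1 by DESeq2; without shControl ABS replicate 2 there were 3 higher and 4 lower, and with the correction 1 lower (1.10% and 2.11%), HMMR.

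**Figure D5:**
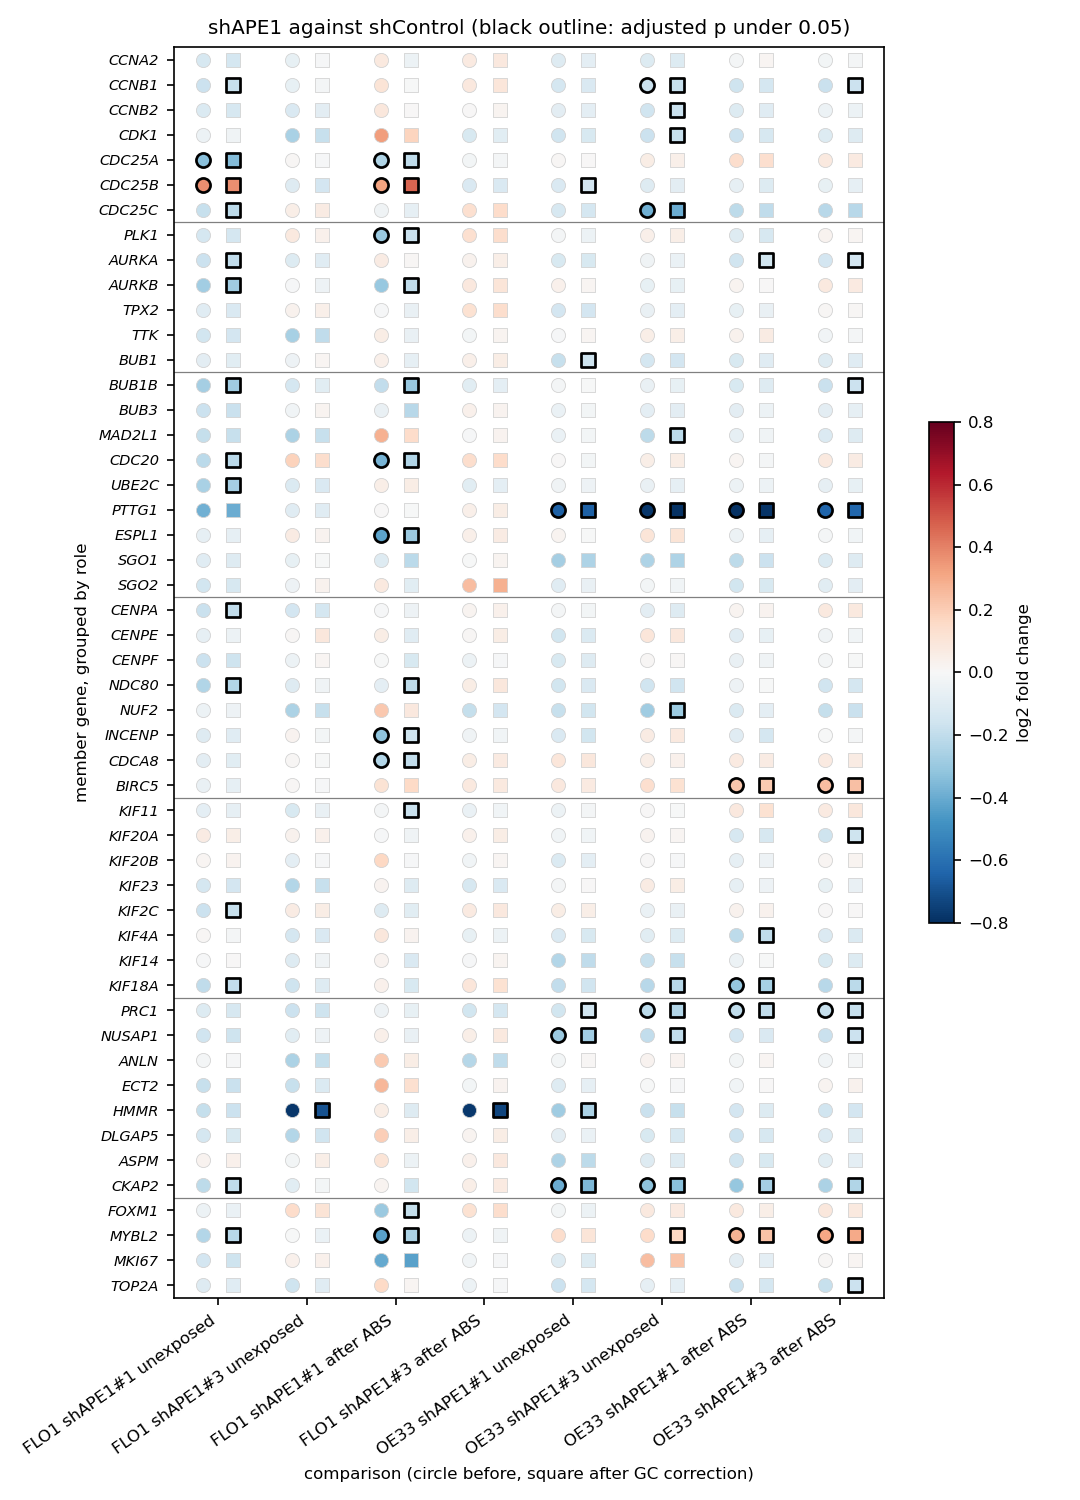
Difference from shControl of each of the 50 genes (rows, by role) with shAPE1#1 and shAPE1#3, unexposed and after ABS, in FLO1 and OE33 (columns), as log2 in colour from -0.8 (blue) to 0.8 (red); circles are before and squares after GC correction, and a black outline marks an adjusted p under 0.05. PTTG1 is outlined in all 4 OE33 columns before and after correction; both shRNAs share the shControl libraries.

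In OE33 the largest member change with either shRNA was that of securin (PTTG1, chr5:160421822-160428744, GRCh38), the inhibitor of separase. It was at 58.7, 62.2 and 56.3 CPM with shControl, 37.6, 35.5 and 39.7 with shAPE1#1 and 33.03, 36.9 and 31.7 with shAPE1#3 in unexposed cells. After ABS it was at 50.2, 45.8 and 50.3 CPM with shControl, 29.8, 31.8 and 25.6 with shAPE1#1 and 32.3, 32.8 and 28.7 with shAPE1#3. Every shAPE1 library lay below every shControl library of the same exposure. The unexposed changes were -0.65 ± 0.09 (adjusted p = 4.14e-06) with shAPE1#1 and -0.78 ± 0.09 (adjusted p = 2.89e-07) with shAPE1#3, falls of 36.4% and 41.8%. After ABS they were -0.79 ± 0.09 (adjusted p = 3.15e-07) and -0.64 ± 0.09 (adjusted p = 6.84e-06). All 4 kept their call when any single library was left out, and with the GC correction they were -0.66, -0.79, -0.79 and -0.64. PTTG1 has near-identical copies in the genome, so its counts are uncertain to that degree.

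Including PTTG1, 3 of 50 members were lower and 0 higher with shAPE1#1 in unexposed OE33 cells (8.13% and 8.24% of all genes), and 5 lower and 0 higher with shAPE1#3 (10.5% and 11.2%). With shAPE1#1 the others were CKAP2, a spindle protein, at 72.98, 72.9 and 87.1 CPM with shControl and 63.4, 45.2 and 68.6 with the hairpin (-0.39 ± 0.12, adjusted p = 0.0221), and NUSAP1, which bundles microtubules, at 102, 108 and 109.7 with shControl and 90.03, 75.5 and 95.2 with the hairpin (-0.30 ± 0.07, adjusted p = 0.00647). The lowest library of both was shAPE1#1 replicate 2, which stood apart; without it NUSAP1 and PTTG1 were still called and CKAP2 was not. With shAPE1#3 they were CDC25C (-0.38 ± 0.12, adjusted p = 0.0191), CKAP2 (-0.33 ± 0.12, adjusted p = 0.0497), the midzone bundler PRC1, from 165, 175 and 177 to 148, 152 and 138 CPM (-0.22 ± 0.06, adjusted p = 0.00863), and CCNB1, from 247, 251 and 247 to 217, 225 and 207 CPM (-0.18 ± 0.06, adjusted p = 0.0437). CCNB1 lost this call without 13 of 18 libraries, CKAP2 without 10 and CDC25C without 4. After correction 7 were lower and 0 higher with shAPE1#1 (11.5% and 11.6% of all genes) and 11 lower and 1 higher with shAPE1#3 (13.8% and 15.2%).

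After ABS, 2 members were higher and 3 lower with shAPE1#1 (7.34% and 8.46% of all genes) and 2 higher and 2 lower with shAPE1#3 (8.75% and 9.31%). MYBL2, the activating partner of MuvB, was at 234, 237 and 246 CPM with shControl, 303, 282 and 307 with shAPE1#1 and 288, 296 and 305 with shAPE1#3, with no overlap between either hairpin and the control. Its changes were 0.28 ± 0.07 (adjusted p = 0.00552) and 0.31 ± 0.07 (adjusted p = 0.00181), and both kept their call when any single library was left out. BIRC5 was at 78.9, 86.5 and 96.6 CPM with shControl, 108, 106 and 101 with shAPE1#1 and 105, 109 and 97.6 with shAPE1#3, again higher with each hairpin (0.22 ± 0.07, adjusted p = 0.0357 and 0.25 ± 0.07, adjusted p = 0.0171). PRC1 was lower with both (-0.20 ± 0.06, adjusted p = 0.0166 and -0.18 ± 0.06, adjusted p = 0.0302), and the kinesin KIF18A with shAPE1#1 (-0.31 ± 0.10, adjusted p = 0.0399). Leaving out single libraries ended the BIRC5 calls in 5 and 4 of 18 fits (0.15 to 0.31 with shAPE1#1, 0.18 to 0.32 with shAPE1#3), those of PRC1 in 3 and 4, and that of KIF18A in 4 (-0.39 to -0.16). Fitting only the 6 libraries compared left MYBL2 higher and PTTG1 lower with shAPE1#1, and called 2 higher and 6 lower with shAPE1#3. Without OE33 shAPE1#1 ABS replicate 3 the shAPE1#1 counts were 2 and 1. With the correction 2 were higher and 6 lower with shAPE1#1 (10.7% and 11.9%), and 2 and 10 with shAPE1#3 (12.9% and 12.6%). Of the 8 followed genes, CDK1, CDC20, PLK1, AURKA, TOP2A, MKI67 and FOXM1 were not called against shControl in OE33 before correction, unexposed or after ABS. With it AURKA was called with both hairpins after ABS (-0.15 and -0.15), TOP2A with shAPE1#3 after ABS (-0.17) and CDK1 with shAPE1#3 in unexposed cells (-0.18). Between the hairpins, edgeR called 0 of 50 in unexposed OE33, and 0 of 15540 genes (0% in each direction), with 3 members at an unadjusted p under 0.05 and 0 called by DESeq2. Over all genes 571 were higher and 677 lower at an unadjusted p under 0.05, and DESeq2 called 20 and 5; with the correction it called 0 members (0.0708% of all genes higher, 0.0129% lower). Which hairpin an OE33 group carries is known from its label alone and cannot be checked in gene counts, so whether the shAPE1#1 and shAPE1#3 results in OE33 come from different hairpins was not tested.

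The mean effect of both hairpins in unexposed cells was compared between lines. It differed for 1 member, PTTG1, which differed by -0.50 ± 0.13 in OE33 relative to FLO1 (adjusted p = 0.0171, edgeR's quasi-likelihood fit, Benjamini-Hochberg, 36 libraries; 3.63% of all genes lower, 2.74% higher). In FLO1 PTTG1 was at 104, 117 and 95.7 CPM with shControl, 82.5, 85.4 and 75.9 with shAPE1#1 and 101, 95.4 and 104 with shAPE1#3, and its changes there were -0.38 ± 0.13 (adjusted p = 0.0777) and -0.09 ± 0.13 (adjusted p = 0.901). The call was lost without FLO1 shControl replicate 3 or OE33 shControl replicate 2. After correction MYBL2 was higher (0.25 ± 0.07, adjusted p = 0.00620), and PTTG1 (-0.50 ± 0.13, adjusted p = 0.0109), CKAP2 (-0.25 ± 0.07, adjusted p = 0.0153) and CDC25B (-0.25 ± 0.06, adjusted p = 0.00125) were lower (5.95% of all genes higher, 6.91% lower).

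Lists of neighbouring functions, 164 genes in 8 lists outside the 50, show what surrounded these changes. After ABS in FLO1 shControl cells 2 of 18 brakes on the cell cycle rose and 2 fell. Before correction 2.48% of all genes rose and 0.516% fell in this comparison, the shares to set beside each list. GADD45A, which binds and inhibits CDK1 complexes, rose by 0.77 and the CDK inhibitor CDKN1A (p21) by 0.71 (log2; adjusted p = 1.31e-05 and 3.98e-05), while the inhibitors CDKN1B (-0.62) and CDKN2C (-0.35) fell. Of 22 further G2/M entry and kinase genes 2 rose, the stress-induced kinases PLK3 (0.69) and PLK2 (0.48), and 2 fell, CCNB3 (-0.49) and GTSE1 (-0.33). Of 35 other kinetochore and centromere genes 1 fell, SPC24 of the NDC80 complex (-0.37), and of 26 other spindle and cytokinesis genes 1 fell, SPAG5 (-0.28). None of 17 genes of the anaphase-promoting complex and none of 18 condensin and cohesin genes passed. Of 12 MuvB and DREAM complex genes LIN37 rose (0.44) and TFDP2 fell (-0.39), and of 15 G1 cyclin and E2F genes SKP2 fell (-0.40). With the GC correction 16 of the 26 spindle genes and 7 of the 18 condensin and cohesin genes fell and none rose, where 4.16% of all genes fell and 5.10% rose.

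In the other FLO1 exposures GADD45A and CDKN1A rose too, by 0.78 and 0.88 with shAPE1#1 and by 0.71 and 0.56 with shAPE1#3. With shAPE1#1 the brake SFN (14-3-3 sigma) rose as well (0.84), while CDKN1B (-0.61) and CDKN2C (-0.34) fell. Of the 26 other spindle genes 14 with shAPE1#1 and 9 with shAPE1#3 fell after correction, where 7.18% and 2.37% of all genes fell. Before correction 4 and 0 of them fell, where 2.07% and 0.285% of all genes fell. In OE33 shControl cells 2 of 18 brakes rose, SFN (0.61) and CCNG2 (0.42), and CHEK2 fell (-0.30). Of 35 kinetochore genes 3 fell, KNTC1 (-0.42), CENPP (-0.40) and ZWINT (-0.19), where 5.89% of all genes rose and 2.51% fell. None of the 26 other spindle genes was called there before the correction, and 9 fell after it, where 6.02% of all genes fell. Tested between the lines, the responses of GADD45A (-1.04), PLK3 (-0.79) and CDKN1A (-0.68) were lower in OE33 and those of CCNG2 (0.71), CDKN1B (0.66) and GTSE1 (0.42) higher, all with adjusted p under 0.05 by edgeR.

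With the hairpins other brakes were called in OE33. Of 18, 3 were higher and 5 lower with shAPE1#1 in unexposed cells, where 8.24% of all genes were higher and 8.13% lower, and 2 higher and 5 lower with shAPE1#3, where 11.2% were higher and 10.5% lower. CDKN1C was at -1.38 and -1.24, CDKN1A at -0.79 and -0.86, CDKN2C at -0.51 and -0.71, and CDKN2B at 0.58 and 0.58 (log2, shAPE1#1 and shAPE1#3, sharing controls). The centrosomal kinase NEK2 (-0.66 and -0.68) and the centromere protein CENPW (-0.60 and -0.67) were lower with both. In unexposed FLO1 shAPE1#1 cells NEK2 (-0.44) and CENPW (-0.56) were lower as well, together with the G1 cyclin CCND2 (-1.53). With shAPE1#3 in FLO1 neither NEK2 nor CENPW was called; the genes of these lists called there before correction were BTG2 (0.44) and E2F5 (0.51).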

How the data were processed

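Members and gene lists were chosen with earlier results of these data known. The deposited table holds raw read counts per Ensembl gene and library; per the submitters' processing notes, the authors' tools were STAR 2.5.2b, Trimmomatic 0.36, Subread 1.5.2 and featureCounts, and the build was GRCh38. Not given in the sources used here are the annotation release, the strand setting and how reads with several matches were counted, so a gene and an antisense partner cannot be told apart. Symbols, transcript GC content and exon lengths came from GENCODE 29 (56898 of 57500 IDs matched; the others held 0.0183% of counts). The column of FLO1 shAPE1#3 ABS replicate 3 carries an added suffix and was used as named. The mean chi-square of counts over genes was 2.41 to 69.7 per degree of freedom in the 36 replicate pairs within groups, so none was a copy. No p-value was taken from it, and pairs of different groups were not checked.

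CPM are counts per 1000000 counts of a library. Changes were tested with edgeR 4.0.16 in R 4.3.3 (TMM, default filterByExpr, robust quasi-likelihood test, 1 coefficient per group, Benjamini-Hochberg over all genes tested, called at adjusted p under 0.05), over the 18 libraries of a line (16868 genes in FLO1, 15540 in OE33) or all 36 (18199). P-values measure the spread between these libraries. The GC correction took, per library, a lowess curve (span 0.3) of log2 CPM deviations on GC content, added to the offsets. The script was tested on simulated counts. Alternatives were RLE scaling, no filter, DESeq2 1.42.0, the replicate number as a block, a fit of only the groups compared, and leaving out each library. Values are given for called members (up to 6 each way with the largest change) and for 8 members followed throughout; companion lists are given by counts and up to 3 called genes, with exceptions picked after seeing values: HMMR, CDC25A, TTK, MAD2L1 and UBE2C where uncalled before correction, members whose sign or call the correction changed between the lines, and more than 3 brake genes.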

Additional observations from a re-analysis of the deposited data

Results flagged for a closer look

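Differences between the lines were tested as contrasts of their own in edgeR's quasi-likelihood fit of all 36 libraries, Benjamini-Hochberg adjusted, and 3 members met it. The ABS response of INCENP differed by 0.50 ± 0.12 on the log2 scale (OE33 minus FLO1, shControl cells, adjusted p = 0.0202). With the GC correction the difference was 0.55 (adjusted p = 4.42e-05). INCENP rose in OE33. In FLO1 shControl cells, exposed replicate 2, which stood apart in GC content, lay within the range of the unexposed libraries. The other exposed libraries lay below that range. The fall of INCENP in these cells was called with the GC correction and not without it. The response of KIF20A differed by 0.39 ± 0.10 (adjusted p = 0.0277), with every exposed library below the unexposed ones in FLO1 and above them in OE33. Within each line, the KIF20A change was not called before the GC correction. With it the fall in FLO1 was called and the rise in OE33 was not. The mean effect of the 2 hairpins on PTTG1 in unexposed cells differed by -0.50 ± 0.13 (OE33 minus FLO1, adjusted p = 0.0171). Leaving out single libraries ended the calls of INCENP in 7, KIF20A in 6 and PTTG1 in 2 of 36 fits. In edgeR's fit of only the groups compared, INCENP (adjusted p = 0.258) and KIF20A (adjusted p = 0.225) were not called, and PTTG1 was (adjusted p = 0.000403).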

How the results depend on the processing

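Counts of called members, both directions together, moved with the processing, while RLE scaling moved none by over 1.5 times. These are counts of members alone. The share of all genes called is given above for the main and GC-corrected fits, and the other fits were not set against it. The order here is ABS in shControl, shAPE1#1 and shAPE1#3 cells, then shAPE1#1 and shAPE1#3 against shControl unexposed, both after ABS, and the hairpins against each other. In FLO1 the counts of 7, 10, 2, 2, 0, 8, 0 and 4 became 26, 25, 15, 15, 1, 13, 1 and 14 with the GC correction. In OE33 the counts of 4, 3, 0, 3, 5, 5, 4 and 0 became 11, 5, 0, 7, 12, 8, 12 and 0. Between the lines, the ABS response went from 2 to 12 and the knockdown effect from 1 to 4. Between unexposed lines the log2 difference of CDC25B was 0.0073 with the correction and 0.0075 with the block as well, and that of PLK1 0.25 with each, opposite in sign to the uncorrected values.

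Same-numbered libraries of different groups were not alike on average, with a mean correlation of deviations of -0.036 in FLO1 and -0.021 in OE33. Single pairs ranged from -0.68 to 0.31 in FLO1 and from -0.55 to 0.33 in OE33. Of 45 pairs 14 and 19 lay above 0.1, so a mean cannot exclude pairing between some of the groups. With the replicate block, FLO1 ABS in shAPE1#1 gave 6, ABS in shAPE1#3 gave 0, shAPE1#1 after ABS gave 5, and OE33 shAPE1#1 after ABS gave 3; other counts stayed within 1.5 times. With the block and the GC correction, FLO1 gave 23, 25, 14, 13, 1 and, after ABS with shAPE1#3, 1, and 13 between hairpins; OE33 gave 12 for ABS in shControl and 7, 12, 8 and 12 against shControl; between lines there were 12 and 4.

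Without the filter, FLO1 ABS in shControl gave 13 and shAPE1#3 gave 1 unexposed and 1 after ABS. DESeq2 gave 12 for FLO1 ABS in shControl, 6 in shAPE1#3, 6 for shAPE1#1 unexposed, 1 and 1 for shAPE1#3, 8 and 1 for OE33 ABS in shControl and shAPE1#3, and 9 for the ABS response between lines. Fitting only the groups compared gave in FLO1 0, 17, 15, 8, 1, 0 (shAPE1#1 after ABS) and 22, and in OE33 12, 0, 4, 13 (shAPE1#3 unexposed), 2 and 8. Between lines it gave 1 for the ABS response, neither INCENP nor KIF20A, and 2 for the knockdown effect. The cause of these shifts was not tested.

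Leaving out 1 library gave ranges of 4 to 16, 1 to 14, 0 to 10, 0 to 8, 0 to 1, 3 to 13, 0 to 7 and 3 to 10 in FLO1, in the order above; 1 to 8, 0 to 5, 0 to 0, 2 to 3, 2 to 8, 2 to 7, 2 to 7 and 0 to 1 in OE33; 0 to 0 for both interactions; and 38 to 44, 0 to 7 and 0 to 2 between lines (unexposed, ABS response, knockdown effect). In FLO1 the highest counts came without shControl ABS replicate 2 or replicate 1, and in OE33 mostly without shAPE1#1 replicate 2 or shAPE1#1 ABS replicate 3.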
